A study of Homo sapiens with 6 samples.

Results

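The miR-26 family was examined in the cholangiocarcinoma (CCA) cell line HuCCT1, a human bile duct cancer line that the sample labels spell HuccT1. Its members were taken by name from the probe lists of the arrays. The names were hsa-miR-26a-5p, hsa-miR-26b-5p, hsa-miR-26a-1-3p and hsa-miR-26b-3p, which are 4 of the 2555 human miRNAs with a probe. Total RNA came from 3 samples labelled control, at 0 ng/ml TGF-β, and from 3 labelled TGF-b, at 10 ng/ml TGF-β, and both groups were taken at 72 h. TGF-β is a cytokine that induces epithelial-mesenchymal transition (EMT) in many epithelial cancer cells. Each sample was labelled with Cy5 and hybridized to its own array of 1 colour. All samples are of 1 cell line, and nothing in the labels says whether the samples of a group came from separate cultures, so a p-value measures only the spread between these 6 arrays, which may be technical. The question was whether the miRNAs of this family differed between control and TGF-β-treated cells.

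MiRNAs are cut as a pair of arms, 5p and 3p, from a hairpin precursor, and 1 of the arms is usually kept by Argonaute while the other decays. The seed, counted here from base 2 to base 8 of the mature miRNA, contributes most to the choice of target mRNAs. The hairpins of the miR-26 family lie in introns of the CTDSP genes, which encode small phosphatases that act on the C-terminal domain of RNA polymerase II and on other nuclear proteins. The miR-26 5p arms are widely expressed in differentiated tissues, the liver included, and are known as repressors of EZH2, the histone methyltransferase of Polycomb complex PRC2.

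The mature sequences are shown because the arms and their seeds decide which probes can be read as 1 group. They were taken from the RefSeq annotation of GRCh38.p14, in which all 7 names examined here were found, and are written 5′ to 3′ with the seed in capitals. The first 4 are the members. The next is the 3p arm of the other miR-26a hairpin, and the last pair are miRNAs with the seed of the 5p members.
miR-26a-5p: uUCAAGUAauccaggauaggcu
miR-26b-5p: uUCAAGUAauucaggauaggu
miR-26a-1-3p: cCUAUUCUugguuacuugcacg
miR-26b-3p: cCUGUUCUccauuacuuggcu
miR-26a-2-3p: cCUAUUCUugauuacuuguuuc
miR-1297: uUCAAGUAauucaggug
miR-4465: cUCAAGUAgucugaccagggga

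Of the 2370 mature human names in that annotation, 4 carry the seed UCAAGUA, which is 0.169%. They are miR-26a-5p, miR-26b-5p, miR-1297 and miR-4465. With positions counted from 1 at the 5′ end, miR-26a-5p and miR-26b-5p were identical at 19 of 21 positions, and the differences from miR-26a-5p to miR-26b-5p were C11U and C21U. MiR-1297 followed miR-26b-5p for its first 15 bases and then differed by A16U and U17G. MiR-4465 shared only 11 of 22 positions with miR-26a-5p. The 3p members do not share a seed with each other, since the change from miR-26a-1-3p to miR-26b-3p includes A4G, whereas miR-26a-2-3p has the seed CUAUUCU of miR-26a-1-3p.

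The same 22 bases of miR-26a-5p are made from MIR26A1 at chr3:37969413-37969434 on the plus strand and from MIR26A2 at chr12:57824658-57824679 on the minus strand, so its probe cannot tell the 2 loci apart. Their 3p arms differ and have separate probes, with miR-26a-1-3p at chr3:37969452-37969473 and miR-26a-2-3p at chr12:57824620-57824641. MIR26B gives miR-26b-5p at chr2:218402657-218402677 and miR-26b-3p at chr2:218402692-218402712, both on the plus strand. The hairpins fall within the spans of CTDSPL for MIR26A1, CTDSP2 for MIR26A2 and CTDSP1 for MIR26B. The hairpins of miR-1297 on chromosome 13 and of miR-4465 on chromosome 6 lie within no protein-coding gene of the same annotation. The exon structure of the host genes was not analysed here.

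In HuCCT1 cells the probes for the 5p members of the family were detected and those for the 3p arms were not. A probe was taken as detected when its spot was more than 2 SD brighter than the mean of the 229 blank spots of the same array. MiR-26a-5p was detected on all 6 arrays, between 28.4 and 81.0 SD above the blank spots. MiR-26b-5p was also detected on all 6 arrays, but closer to the threshold, between 2.66 SD on TGF-β array 1 and 12.5 SD on TGF-β array 2. The sequences of miR-26a-5p and miR-26b-5p are identical at 19 of 21 positions, and how far their probes share signal was not tested. MiR-26a-1-3p was detected on 0 of 6 arrays, and its spot lay between -2.62 and 0.31 SD from the blank mean. MiR-26b-3p was detected on 0 of 6 arrays, with values from -3.99 to -0.93 SD. MiR-26a-2-3p, which would tell MIR26A2 from MIR26A1, was likewise detected on 0 of 6 arrays, from -3.69 to -1.16 SD. For these 3p arms both groups were below detection, so no fold change is given. A 3p arm that is not detected over the blank spots cannot be told from an absent one on these arrays.

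**Figure D1:**
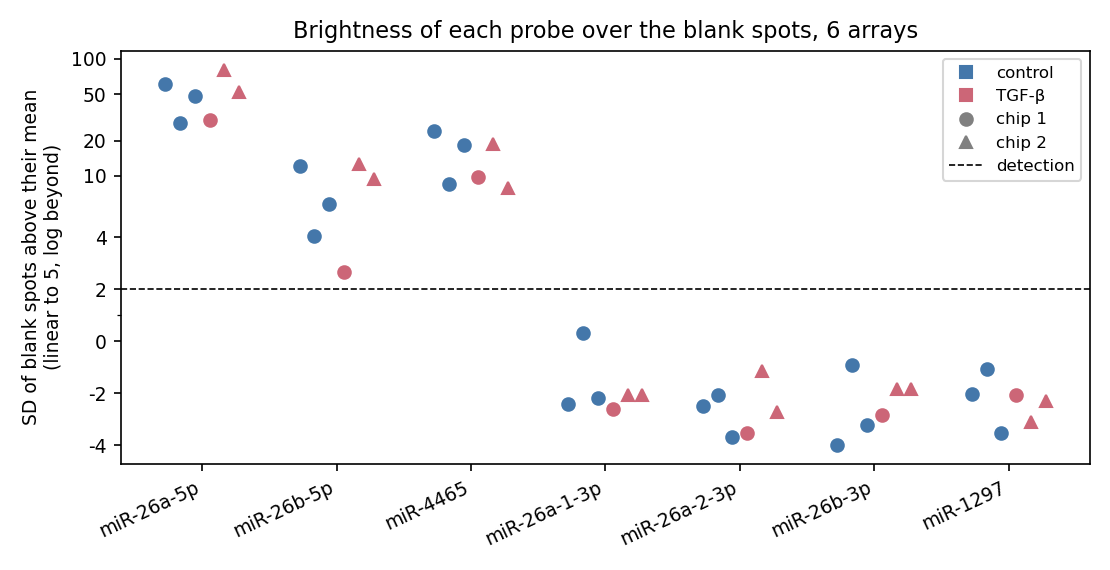
Brightness of the 7 probes on each of the 6 arrays, as the distance from the blank mean in SD of the blank spots (axis linear up to 5 and logarithmic beyond), with control and TGF-β arrays in different colours and the 2 chips as different symbols. The spots of miR-26a-5p, miR-26b-5p and miR-4465 lie above the detection line at 2 SD on every array, and those of the 3p arms and of miR-1297 below it.

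As a check of the cell line, 6 miRNAs typical of epithelial cells (miR-205-5p, miR-429, miR-141-3p and the 3p arms of miR-200a, miR-200b and miR-200c) were all expressed, and miR-429 was the only one of them missed on an array. Their summed signal was 413 to 483 on the control arrays and 518 to 543 on the TGF-β arrays, with the miR-200c-3p probe adding the largest part. The log2 change was above 0 for 4 of the 6 and below 0 for 2, with a median of 0.088, and ran from -0.65 for miR-141-3p to 0.40 for miR-200c-3p. The groups did not overlap for miR-200b-3p and miR-200c-3p (33.3% of the list, beside 9.94% of all expressed miRNAs), and none of the 6 passed the adjusted p (limma). Of 7 miRNAs typical of hepatocytes, blood cells or stroma, 6 were detected on no array and miR-223-3p on 1. The arrays lay on 2 chips, as the names of the scanner outputs give them, with the control arrays and TGF-β array 1 on chip 1 and TGF-β arrays 2 and 3 on chip 2. Between 327 and 464 human probes were detected per array. In RNA of whole samples, fewer cells that make a miRNA and less of it per cell cannot be told apart.

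For the comparison, the blank mean was taken off each spot and arrays were brought to a shared median of 25 over the 292 probes that all 6 detected. Log2 signals were compared with limma over 323 expressed miRNAs, a miRNA being expressed if every array of either group detected it. MiR-26a-5p and miR-26b-5p both had a higher mean with TGF-β, and neither difference passed the test. An adjusted p under 0.05 was reached by 0 of the 323 (limma, 0% called), while 21 had an unadjusted p under 0.05 (6.5%). Among these, 0 of the 2 expressed members passed the adjusted p and 0 the unadjusted one. The groups did not overlap for 32 of 322 miRNAs (9.94%), and they overlapped for both members. The ratio of group means was above 1.5 or below 0.67 for 23 of 322 miRNAs (7.14%) and for 0 of the 2 members.

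The signal of miR-26a-5p was 55.3, 61.1 and 49.8 in controls 1, 2 and 3, and after TGF-β it was 54.7, 84.5 and 100.1 in the same order. TGF-β array 1 lay within the range of the controls, while TGF-β arrays 2 and 3 lay above all of them. The mean was 55.4 ± 5.63 (SD, n = 3) in the controls and 79.8 ± 23.0 (SD, n = 3) with TGF-β, a ratio of 1.44. The log2 change was 0.49 with a standard error of 0.25 and a 95% interval from -0.094 to 1.07 (limma adjusted p = 0.79). On the fold scale this interval runs from 0.937 to 2.09, which includes no change as well as a 2-fold rise. The exact permutation test, 2-sided, gave p = 0.30, where 3 arrays against 3 cannot go below 0.10.

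The signal of miR-26b-5p was 11.1, 8.66 and 6.0 in the controls, and after TGF-β it was 4.89, 13.05 and 18.0. Here TGF-β array 1 was the lowest of all 6 arrays and TGF-β arrays 2 and 3 were the highest. The mean was 8.60 ± 2.57 (SD, n = 3) in the controls and 12.0 ± 6.60 (SD, n = 3) with TGF-β, a ratio of 1.39. The log2 change was 0.33 with a standard error of 0.46 and a 95% interval from -0.74 to 1.39 (limma adjusted p = 0.99), or 0.600 to 2.62 on the fold scale. The exact permutation test, 2-sided, gave p = 0.70. Within the groups the log2 signals of miR-26b-5p had an SD of 0.76, larger than that of 97.8% of the expressed miRNAs, whereas that of miR-26a-5p was 0.33, beside a median of 0.29 over all expressed miRNAs.

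**Figure D2:**
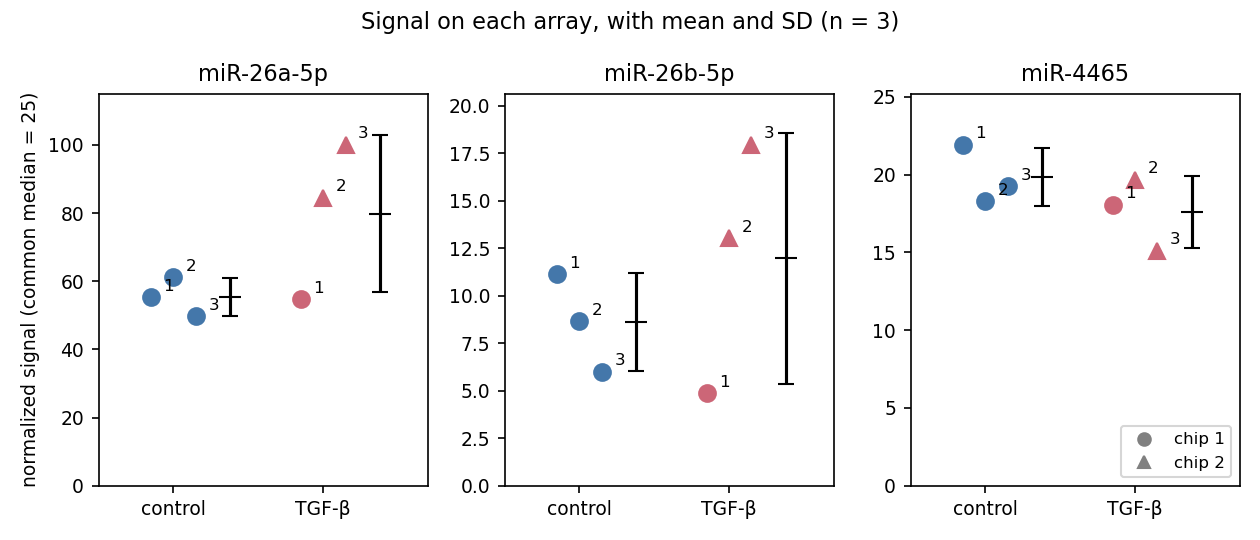
Normalized signal (median of the commonly detected probes set to 25) of miR-26a-5p, miR-26b-5p and miR-4465 on each of the 6 arrays, numbered by replicate, with chip 1 as circles and chip 2 as triangles and the mean with SD (n = 3) beside each group; each panel has its own scale. TGF-β arrays 2 and 3 are the highest for both miR-26 members, at 84.5 and 100.1 for miR-26a-5p and 13.05 and 18.0 for miR-26b-5p, and TGF-β array 1 lies within or below the range of the controls.

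Among the TGF-β arrays, array 1 on chip 1 thus lay below arrays 2 and 3 on chip 2 for both expressed members. The higher means came from the arrays of chip 2. The log2 signal on TGF-β arrays 2 and 3, averaged, exceeded that on TGF-β array 1 by 0.75 for miR-26a-5p and by 1.65 for miR-26b-5p, against a median of -0.056 over the expressed miRNAs. This excess was larger than that of 92.9% and 99.7% of the expressed miRNAs. Within chip 1, where TGF-β array 1 was the only treated array, the log2 change was -0.085 for miR-26a-5p (limma adjusted p = 0.92) and -0.84 for miR-26b-5p (limma adjusted p = 0.59), with the lone treated array assumed to vary like the controls. With the chip as a block, which rests on the same array, the values were -0.013 (limma adjusted p = 0.99) and -0.77 (limma adjusted p = 0.70). Chip 2 held no control, so that chip and treatment cannot be told apart on it. Among the treated arrays, an effect of chip cannot be told from a deviation of TGF-β array 1 alone. TGF-β array 1 also had the highest mean of the blank spots, 82.3, against 29.5 to 76.2 on the other arrays, and its part in the low signals of the family was not tested.

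The values also rested on single arrays. Without TGF-β array 1 the log2 change was 0.72 for miR-26a-5p and 0.86 for miR-26b-5p (limma, adjusted p = 0.53 for both), and the unadjusted limma p, 0.011 and 0.028, was then under 0.05 for both. In that setting 30 of 335 expressed miRNAs had an unadjusted limma p under 0.05. All its controls lay on chip 1 and all its treated arrays on chip 2, so chip and treatment cannot be told apart in it. The unadjusted limma p of miR-26a-5p was also under 0.05, at 0.026, with normexp background correction and an offset of 50, where it was under 0.05 for 25 of 323 miRNAs. Without TGF-β array 3 the log2 change was 0.26 for miR-26a-5p (limma adjusted p = 0.81) and -0.11 for miR-26b-5p (limma adjusted p = 0.97). For miR-26b-5p, 3 further arrays moved the value by more than 1.5 times, since leaving out control array 1 gave 0.53, control array 3 gave 0.091 and TGF-β array 2 gave 0.17. In the normalized values of the authors, in which the median of the listed miRNAs is 25 on each array, miR-26a-5p had 145.8, 88.9 and 90.3 in the controls against 73.2, 187.1 and 137.0 after TGF-β. MiR-26b-5p had 29.5, 12.8 and 10.8 in the controls against 6.6, 28.9 and 24.6 after TGF-β. In these values control array 1 lay above TGF-β array 3 for both members, and the log2 changes were 0.23 and 0.067 (limma adjusted p = 0.92 and 0.97). The scaling moved all miRNAs together, as the median log2 change over the expressed miRNAs was 0.013 with the common probes and -0.27 in these values. Relative to that median the change of miR-26a-5p was 0.47 and 0.49, and that of miR-26b-5p 0.31 and 0.33.

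**Figure D3:**
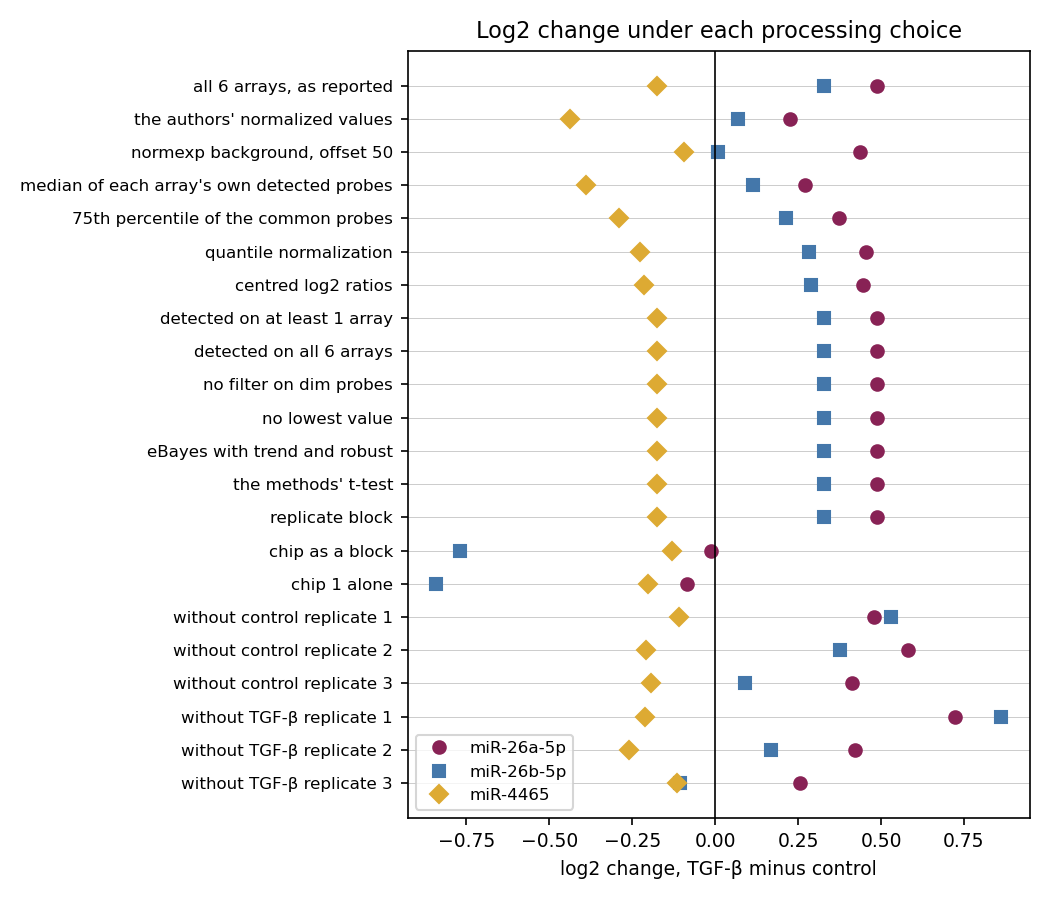
Log2 change (TGF-β minus control) of miR-26a-5p, miR-26b-5p and miR-4465 for all 6 arrays as reported and under each of 21 other processing choices or sets of arrays. The points of miR-26a-5p and miR-26b-5p lie left of 0 with the chip as a block and with chip 1 alone, that of miR-26b-5p also without TGF-β array 3, and those of miR-4465 lie left of 0 throughout.

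Whether the family members moved apart was asked within arrays, since a difference of log2 signals on the same array does not depend on its scaling. The levels of different probes are not compared, only how their difference shifts with treatment. Signal shared between the probes of miR-26a-5p and miR-26b-5p, which was not tested, would make this difference smaller. The log2 signal of miR-26a-5p minus that of miR-26b-5p was 2.31, 2.82 and 3.05 in the controls and, after TGF-β, 3.48, 2.70 and 2.48. The values of the groups were interleaved, and both the highest value and the second lowest came from treated arrays. Their mean shifted by 0.16, from 2.73 ± 0.38 (SD, n = 3) to 2.89 ± 0.53 (SD, n = 3), which lay within the array-to-array spread (p = 0.70, exact permutation test, 2-sided).

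Of the other miRNAs with the seed or hairpin of the family, only miR-4465 was detected. MiR-1297, whose first 15 bases are those of miR-26b-5p, was detected on 0 of 6 arrays and lay between -3.54 and -1.09 SD from the blank spots. It was thus below detection on the same arrays on which the probe for miR-26b-5p was detected. MiR-4465 had signals of 21.9, 18.3 and 19.3 in the controls and, after TGF-β, 18.1, 19.7 and 15.1. The groups overlapped, and the spread was narrow, with an SD of 0.17 on the log2 scale within the groups. Its log2 change was -0.17 with a standard error of 0.19 and a 95% interval from -0.61 to 0.26 (limma adjusted p = 0.99). TGF-β arrays 2 and 3 were on average 0.067 lower than TGF-β array 1 (a log2 difference of -0.067). The excess over TGF-β array 1 seen for miR-26a-5p and miR-26b-5p was thus not seen for this miRNA of the same seed. The shift of the within-array difference was 0.66 for miR-26a-5p against miR-4465 and 0.50 for miR-26b-5p against miR-4465, and over the 3 pairs compared the adjusted p was 0.60, 0.70 and 0.70 (2-sided exact permutation tests with Benjamini-Hochberg adjustment). With arrays of the same replicate number taken as pairs, the difference of miR-26a-5p from miR-4465 was higher with TGF-β in 3 of 3 pairs and that of miR-26b-5p from miR-4465 in 2 of 3. The exact sign-flip test, chosen after the data were seen, gave p = 0.25 and 0.75, and 3 pairs cannot go below 0.25.

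The members were set beside other miRNAs that lie in introns of protein-coding genes, as the family does. Of 33 such miRNAs, 18 were expressed, 17 of them on all 6 arrays. None of the 18 passed the adjusted p (limma), and the unadjusted p was under 0.05 for 2, beside 21 of all 323 expressed miRNAs (6.5%). The log2 change was above 0 for 14 and below 0 for 4, with a median of 0.13 beside 0.013 over all expressed miRNAs, of which 165 were higher and 158 lower. The groups did not overlap for 3 of the 18 (16.7%, beside 9.94% of all expressed miRNAs). These were miR-629-5p from TLE3, which had the largest log2 change of the list at 1.18, miR-361-5p from CHM at 0.21 and miR-224-5p from GABRE at -0.49 (limma adjusted p = 0.43, 0.99 and 0.69). MiR-629-5p was detected on 5 of 6 arrays, with control array 2 set to its lowest detected signal, and its 11.6 ± 4.62 with TGF-β stood against 4.79 ± 0.42 in the controls (SD, n = 3 each). The members' own changes of 0.49 and 0.33 lay within the range of the list, from -0.49 to 1.18.

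Other miRNAs known to repress EZH2 formed the last list. Of the 7, 4 were expressed and 3 (miR-101-3p, miR-124-3p and miR-214-3p) were detected on no array. Those expressed were let-7a-5p, let-7b-5p, let-7c-5p and miR-138-5p, with log2 changes of 0.62, 0.46, 0.18 and 0.11, and none passed the adjusted p (limma adjusted p = 0.72, 0.81, 0.99 and 0.99). Their groups overlapped in every case. The median of the 4 was 0.32 beside 0.013 over all expressed miRNAs. For the let-7 miRNAs TGF-β array 1 lay within the range of the controls, and TGF-β arrays 2 and 3 lay above it. For miR-138-5p TGF-β array 1 was the lowest, and only TGF-β array 3 lay above the controls. The let-7 miRNAs differ from each other at few bases, and how far their probes share signal was not tested.

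**Figure D4:**
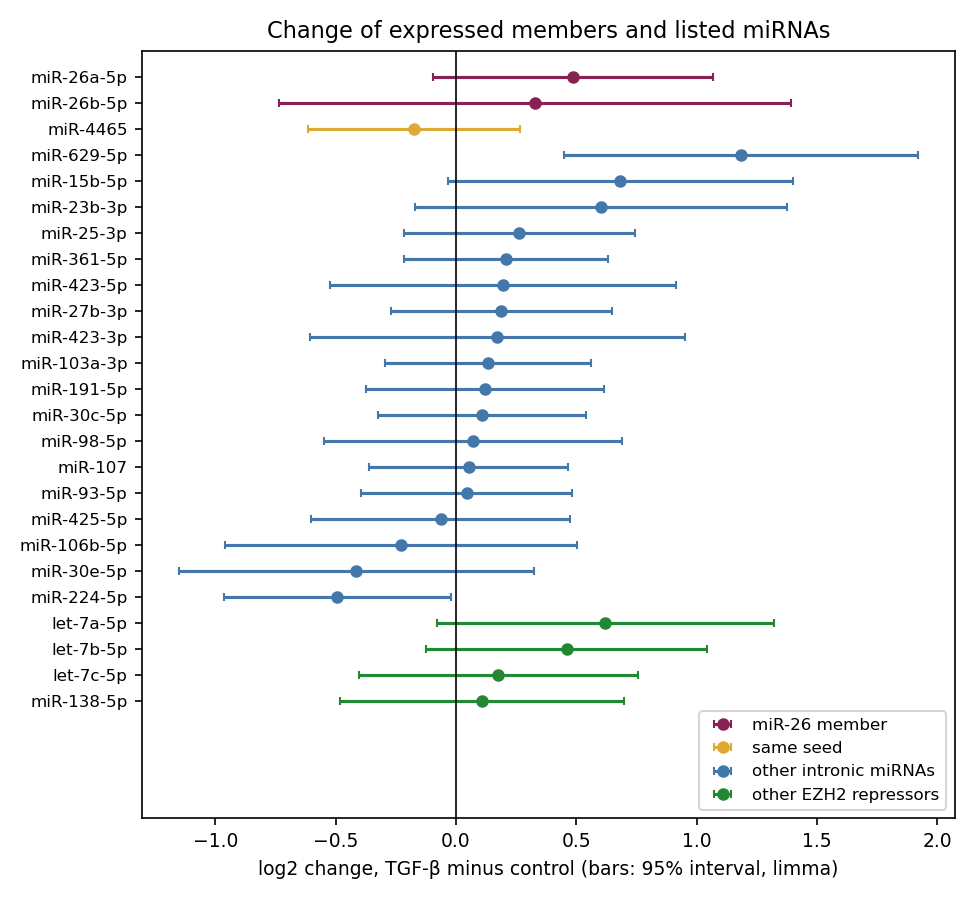
Log2 change (TGF-β minus control) with its 95% interval from limma for the expressed miR-26 members, miR-4465, the other intronic miRNAs and the other miRNAs known to repress EZH2. The intervals of miR-26a-5p (-0.094 to 1.07) and miR-26b-5p (-0.74 to 1.39) include 0, and those of miR-629-5p and miR-224-5p do not, though neither passed adjustment over the 323 expressed miRNAs.

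The profiles most like those of the members were found by centring the log2 signals of each miRNA on its own mean over the 6 arrays and taking the root-mean-square difference, over the 291 other miRNAs detected on all 6 arrays. The 5 nearest to miR-26a-5p were let-7d-5p (0.093), miR-320a (0.095), miR-99a-5p (0.12), miR-151a-3p (0.17) and miR-30b-5p (0.18), against a median difference of 0.45. The nearest, let-7d-5p, had signals of 128, 150 and 110 in the controls and 128, 230 and 240 after TGF-β, with TGF-β array 1 among the controls and the other two above them. The 5 nearest to miR-26b-5p were miR-100-5p (0.23), miR-3679-3p (0.25), miR-151a-5p (0.29), miR-151a-3p (0.31) and miR-30d-5p (0.33), against a median of 0.71. MiR-100-5p had signals of 109, 121 and 84.3 in the controls and 77.5, 170 and 196 after TGF-β, with TGF-β array 1 the lowest and TGF-β arrays 2 and 3 the highest. As these neighbours were chosen by their profiles over the same arrays, a pattern shared with the members follows from the choice. The members themselves differed by 0.38, which placed miR-26b-5p 95th from miR-26a-5p and miR-26a-5p 11th from miR-26b-5p. MiR-4465 was 168th from miR-26a-5p and 145th from miR-26b-5p.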

How the data were processed

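Total RNA of HuCCT1 cells, 3 control and 3 TGF-β samples, was labelled and hybridized to 3D-Gene Human miRNA Oligo chips. The scanner output deposited for each array gives a median intensity per spot, with a local background, on a linear scale without normalization. The authors also deposited normalized intensity values with a median of 25 per array. The version of the array extraction software is not given in the sources used here. Membership rests on probe names alone, but the family and the lists were proposed with earlier results of these data known.

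From the spot intensity, the blank mean was subtracted. Human probes flagged at any gain (0 to 2 per array) were treated as missing. Each array was scaled to a median of 25 over the commonly detected probes, undetected signals were replaced by the array's lowest detected one (1.83 to 4.31), and log2 was taken. Groups were compared with limma 3.58.1 (lmFit and eBayes, no block, R 4.3.3) with Benjamini-Hochberg adjustment, and single values by exact permutation. The step was tested on simulated data. Named were the members, the miRNAs of their seed or hairpin, listed miRNAs whose groups did not overlap or that passed the adjusted p, and the 5 nearest profiles of each 5p member; other list members named in the text were chosen after their values were seen. After centring within groups, arrays of the same replicate number had correlations of 0.12, 0.24 and 0.33 over 322 miRNAs. This was taken as pairing for the replicate block and the sign-flip test, while the main fit and the permutation tests used no pairing. No correlation is given for arrays of different numbers, so these values alone do not establish pairing. The labels do not say what a number marks. The number of arrays limits the precision.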

Additional observations from a re-analysis of the deposited data

How the results depend on the processing

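Over 21 alternatives, the log2 change of miR-26a-5p (0.49) kept its direction in 19 and that of miR-26b-5p (0.33) in 18, with adjusted p values of 0.49 to 0.999 and 0.53 to 0.999, all from limma but for the methods' t-test. Changing only the probe filter, the lowest value, the eBayes options, the test or the replicate block left these log2 changes, and that of miR-4465, as they were. No direction could turn under those settings, so they say nothing about its stability. With the chip as a block the log2 changes of miR-26a-5p and miR-26b-5p were -0.013 and -0.77, and with chip 1 alone -0.085 and -0.84. Both settings put TGF-β array 1 alone against the controls. With single arrays left out, miR-26a-5p ranged from 0.26 to 0.72 and miR-26b-5p from -0.11 (without TGF-β array 3) to 0.86. With normexp background correction and an offset of 50, the value of miR-26b-5p was 0.010, and the part of the offset in this was not tested. MiR-4465 stayed below 0 in all 21, from -0.44 to -0.093. The shift between miR-26a-5p and miR-26b-5p (0.16) ran from -0.14 without TGF-β array 1, and -0.050 without control array 1, to 0.36 with single arrays left out, was 0.76 with chip 1 alone and had p values between 0.20 and 1.

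With the replicate block, pairing arrays of the same number, the log2 changes stayed at 0.49 and 0.33 (limma adjusted p = 0.49 and 0.98), 0 miRNAs passed the adjusted p, 31 had an unadjusted p under 0.05, and no call changed. The number past the adjusted p (0) was 1 by the methods' t-test (miR-4521) and 0 to 1 with arrays left out, the 1 being miR-629-5p without TGF-β array 3 (limma adjusted p = 0.039). Of the intronic, EZH2-repressing and same-seed miRNAs, which leaves out the epithelial markers, 3 of 23 were without overlap in the main setting. The count was 0 in the values deposited as normalized and 0 when each array was scaled on its own detected probes. It was 3 to 12 with arrays left out, where fewer arrays overlap less by construction. For chip 1 alone, with its lone treated array, no count is given. The share without overlap over all expressed miRNAs (9.94%) was taken only in the main setting. The counts under the other settings therefore have no share to be read against, and nothing is concluded from them. The causes of the other shifts were not tested. The 3p arms, detected on no array, entered only the no-filter setting. There they were held at the lowest value of each array, so no change is given for them. The no-filter setting, where most signals are at the lowest value, moved the median of all miRNAs to 0.32. The shift between the members was not run under the other filters, the other eBayes settings or the chip block, nor the count of listed miRNAs under the blocks, the other eBayes settings or the methods' t-test.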

Other observations

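The local background that the scanner gives beside a spot was not used for the signals. For miR-26a-5p the spot was 0.751 to 2.05 times as bright as its own local background over the 6 arrays, and it was dimmer than that background in controls 1 and 2 and, after TGF-β, on the arrays of chip 2. On control array 2 the spot of miR-26a-5p had a brightness of 248 beside a local background of 331 and a mean of 54.8 over the blank spots. On TGF-β array 1 the spot was 309 beside a local background of 151. For miR-26b-5p the spot was 0.936 to 1.84 times its local background, with the highest ratio again on TGF-β array 1. For miR-4465 the ratio ran from 1.16 to 1.66.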
